A study of Homo sapiens with 4 samples.

Results

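The response to MLN4924 of PC3 cells depleted of p14ARF (PC3-shp14ARF cells) was described from 6 RNA-seq libraries, 3 of cells given DMSO (the condition shARF) and 3 of cells given MLN4924 (the condition Both). PC3 is an established line of human prostatic adenocarcinoma cells, and in PC3-shp14ARF cells a retrovirus carried a short hairpin RNA (shRNA) against p14ARF into the genome, followed by selection with hygromycin. MLN4924 was given at 1 µM, and the cells were collected after 3 days. Parental PC3 cells with DMSO (Ctrl) and with MLN4924 (MLN), also with 3 libraries each, make up the other 6 of the 12 libraries. The labels call those cells wild type, and no control shRNA is named for them, so the hairpin, the viral insertion and the selection cannot be told apart when the lines are compared. The members are all genes that averaged 1 TPM or more in the 6 libraries of the depleted line (TPM, a transcript's share scaled for gene length, with the same total in each library), which held for 14384 of 43622 genes. Of the genes left out, 18633 were listed at 0 in all 6 libraries. Fold changes are differences of log2(TPM + 0.1), Both minus shARF, a scale on which the change of genes with low values is understated.

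MLN4924 (pevonedistat) blocks the enzyme that activates NEDD8, a small protein related to ubiquitin. The best known targets of NEDD8 are the cullins, the scaffolds of the cullin-RING ubiquitin ligases (CRLs). A cullin without NEDD8 leaves its ligase poorly active, and proteins that CRLs mark for destruction then build up: the replication licensing factor CDT1, the CDK inhibitors p21 and p27, the mitotic kinase regulator WEE1, the inhibitor of NF-kB, IkBα, and the antioxidant transcription factor NRF2. p14ARF is one of the products of CDKN2A, known for holding MDM2 away from p53, and PC3 cells lack functional p53. RNA was measured here, so the protein levels of these CRL substrates are outside the data.

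CDKN2A, the target of the hairpin, lies on the minus strand of chromosome 9 from 21967752 to 21995301 of GRCh38. It stood at 190.1, 183 and 177 TPM in the Ctrl libraries, at 58.2, 58.7 and 60.9 TPM in shARF and at 47.2, 41.2 and 54.01 TPM in Both. The level was thus lower in every library of the depleted line given DMSO than in any Ctrl library. It was a little lower still in Both (log2 fold change of -0.33 ± 0.092 (SE), adjusted p = 0.0094), a call that was lost with median-of-ratios scaling (adjusted p = 0.0718). Both did not overlap with shARF, which held for 77.5% of all genes. In PC3 cells CDKN2A fell with the drug as well, from a mean of 183 TPM in Ctrl to 118 TPM in MLN. That log2 fold change was -0.65 (limma, adjusted p = 0.00061). The response of the depleted line minus that of PC3 cells was 0.32 (limma, adjusted p = 0.0978), which did not pass. A gene-level value adds up the transcripts of p14ARF and of p16INK4a, which share exons, so it is a partial check of the hairpin.

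Between 14055 and 14798 genes reached 1 TPM in a library, and the lowest correlation between replicates of a condition was 0.983 (Pearson, log2 scale). Mitochondrial transcripts took 6.04% to 8.03% of the total in shARF and 10.2% to 13.2% in Both, against 7.85% to 10.9% in Ctrl and 8.43% to 12.9% in MLN. That share rose with the drug in the depleted line, and its part in the other results was not tested. Epithelial markers (KRT8, KRT18, KRT19, EPCAM and CDH1) were between 7.18 and 589 TPM in all 12 libraries, while KLK2 and KLK3, known from secretory cells of the prostate, were at 0.0472 TPM or below, as is known for PC3. The leukocyte markers PTPRC, CD3E and CD14 reached at most 0.797 TPM and the vessel marker CDH5 at most 0.327 TPM. PECAM1, a marker of vessels that leukocytes also carry, was at 10.9 to 12.4 TPM in Ctrl, 0.456 to 0.678 TPM in MLN, 1.86 to 1.94 TPM in shARF and 0.132 to 0.212 TPM in Both, and its part in the results was not tested. Of the fibroblast markers, DCN and PDGFRB reached at most 0.824 TPM, while LUM was at 4.97, 6.20 and 4.75 TPM in shARF and 11.002, 13.5 and 10.9 TPM in Both. In cultures, fewer cells of a kind and less RNA per cell cannot be told apart, nor can a change in the total RNA of a cell be seen in TPM. Where replicates are not stated to be separate cultures, as here, p-values measure the spread between these libraries, which may be technical.

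With limma, 4837 genes (33.6%) were higher in Both than in shARF at an adjusted p below 0.05 and 5904 (41.0%) were lower. Counting only log2 fold changes beyond 1, 1755 genes (12.2%) were higher and 2015 (14%) lower. Beyond 2, 681 (4.73%) were higher and 487 (3.39%) lower. Of the genes called, 45% were higher, and 51% with median-of-ratios scaling. The libraries of the conditions did not overlap for 77.5% of all genes, so a call alone says little about any gene, and the size of each change is given throughout. Counts in a gene list are to be read against these shares. The median log2 fold change was -0.08, and 1 gene in 10 lay below -1.24 and as many above 1.20. Of the 681 genes, 332 were below 1 TPM in every shARF library and 51 were listed at 0 in all of them, and of the 487 genes 151 were below 1 TPM in every Both library. The filter on the mean of the 6 libraries lets a gene pass through 1 condition alone, and such a gene had to differ, so these counts are in part set by the filter.

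CXCL8, which encodes the neutrophil chemokine interleukin-8, became the most abundant gene of the depleted line. It stood at 15.1, 17.97 and 16.6 TPM in shARF and 35971, 37384 and 37772 TPM in Both. FTH1 or MSMP held the top place in the shARF libraries, and CXCL8 did in every Both library. This was a log2 fold change of 11.12 ± 0.073 (SE), adjusted p = 1.33e-12. CXCL8 lies on chromosome 4 from 73740519 to 73743716, and other genes of the chemokine cluster on the same chromosome rose with it: CXCL3 (log2 fold change of 8.82 ± 0.19 (SE), adjusted p = 7.41e-10), CXCL1 (log2 fold change of 6.73 ± 0.097 (SE), adjusted p = 8.76e-11), CXCL2 (log2 fold change of 5.71 ± 0.11 (SE), adjusted p = 5.29e-10) and CXCL6 (log2 fold change of 3.81 ± 0.13 (SE), adjusted p = 1.29e-08). These ligands of the receptors CXCR1 and CXCR2 draw neutrophils. CXCL1 was at 8.62, 7.67 and 6.74 TPM in shARF and 845, 876 and 745 TPM in Both. CXCL3 was at 0.638, 0.91 and 1.29 TPM in shARF and 438, 473 and 462 TPM in Both, and CXCL2 at 1.26, 1.76 and 1.59 TPM in shARF and 85.3, 87.7 and 81.5 TPM in Both. In each of the 5 genes every Both library was far above every shARF library. CXCL3 averaged 0.945 TPM in shARF and passed the filter only through Both, so it had to differ and its adjusted p adds nothing. CXCL1, CXCL2 and CXCL3 are near-identical copies, and how shared reads were divided among them is not stated, so their separate values are uncertain.

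CXCL genes are textbook targets of NF-kB, and the promoters of these 5 all hold the letters GGAATTTCC, a form of the kappa-B site, within the 300 bases from RefSeq (GRCh38.p14, from 250 bases before to 50 bases after the start of the gene). The stretches of 60 bases around the match are shown for these CXCL genes, which were chosen because they rose and hold the motif. They are at chr4:73740452-73740511 (plus strand, CXCL8), chr4:73836563-73836622 (plus, CXCL6), chr4:73869289-73869348 (plus, CXCL1), chr4:74038734-74038793 (minus, CXCL3) and chr4:74099239-74099298 (minus, CXCL2). NFKBIA, at chr14:35404797-35404856 (minus strand), is shown beside them since it encodes IkBα and fell. Capitals mark the match, read 5′ to 3′ on the strand of the gene.
CXCL8: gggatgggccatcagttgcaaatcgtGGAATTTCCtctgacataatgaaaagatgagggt
CXCL6: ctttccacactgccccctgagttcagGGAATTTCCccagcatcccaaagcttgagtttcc
CXCL1: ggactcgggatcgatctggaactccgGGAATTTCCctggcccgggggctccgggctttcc
CXCL3: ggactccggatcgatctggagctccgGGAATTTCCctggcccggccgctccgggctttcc
CXCL2: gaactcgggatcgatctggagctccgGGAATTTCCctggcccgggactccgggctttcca
NFKBIA: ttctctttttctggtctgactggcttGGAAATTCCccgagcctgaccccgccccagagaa

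In CXCL8, CXCL6, CXCL1, CXCL3 and CXCL2 the match starts 91, 89, 78, 78 and 77 bases before the RefSeq start that the promoter table uses, and in NFKBIA the reverse complement GGAAATTCC starts 81 bases before it. That start can differ from the GENCODE limits of a gene, as it does for CXCL8. On both strands, 9 of the 21 NF-kB targets with a RefSeq promoter (42.9%) held this motif, against 0.472% of 27305 promoters and 0.434% of the 10127 promoters of tested genes. The 9 are not independent, since CXCL1, CXCL2 and CXCL3 have near-identical promoters. Of the 9, 7 rose (with NFKBIZ and ICAM1), and NFKBIA and NFKB1 fell, so genes with these letters went both ways. CXCL3 is among the 7 and passed the filter only through Both, so it had to rise.

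The list of NF-kB targets had 35 genes, of which 25 passed the filter, and those left out include TNF, PTGS2 and BIRC3. Of the 25, 16 rose and 7 fell (64% and 28%, against 33.6% and 41.0% of all genes), with 13 and 2 of them beyond 1. The median was 1.07 against -0.08 over all genes. Besides the CXCL genes, the interleukins IL1A (from 0.567 to 20.6 TPM) and IL6 (from 0.177 to 3.26 TPM) rose, as did the growth factor CSF2 (from 0.133 to 2.59 TPM), all from low levels. CXCL3, CCL20, IL6, IL1A and CSF2 averaged below 1 TPM in shARF and passed the filter only through Both, so they had to differ, and the counts and the median of the list include them as a description only. The non-canonical subunits RELB and NFKB2 rose by 1.46 and 1.07 on the log2 scale. NFKBIA, the immediate feedback inhibitor of the pathway, fell instead, from 67.3, 71.1 and 80.5 TPM in shARF to 42.7, 42.2 and 43.8 TPM in Both, with a log2 fold change of -0.76 ± 0.073 (SE), adjusted p = 1.03e-05. IL1B (-1.65), CCL2 (-0.95) and TNFAIP2 (-1.46) also fell.

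The list of NRF2 targets moved more evenly. All of its 29 genes passed the filter, and 24 rose and 5 fell (82.8% and 17.2%, against 33.6% and 41.0% of all genes). Of these, 16 rose beyond 1 and none fell beyond -1, and the median was 1.37. NRF2 is held down by KEAP1, the adaptor of a CUL3 ligase, and drives genes of glutathione and thioredoxin metabolism, NADPH supply and detoxification. The aldo-keto reductases AKR1C1, AKR1C2 and AKR1B10, which reduce steroids and reactive carbonyls, rose most. AKR1C1 was at 1.54, 1.29 and 1.68 TPM in shARF and 908, 914 and 895 TPM in Both, with a log2 fold change of 9.15 ± 0.088 (SE), adjusted p = 1.62e-11. AKR1C2, a near-identical neighbour whose reads may be shared with it, rose by 8.41, and AKR1B10 by 6.33. AKR1C2 averaged 0.551 TPM in shARF and passed the filter only through Both. It had to differ, and the counts and the median of the list include it as a description only. OSGIN1, an oxidative stress inhibitor of growth, rose from 27.02, 23.3 and 27.2 TPM in shARF to 329, 309 and 321 TPM in Both.

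Among abundant NRF2 targets, the sulfiredoxin SRXN1 went from 159.6 to 1745 TPM (3.45), the thioredoxin reductase TXNRD1 from 581 to 2239 TPM (1.94), haem oxygenase HMOX1 from 47.7 to 386 TPM (3.01), and GCLM, the modifier subunit of the enzyme that starts glutathione synthesis, from 34.8 to 247 TPM (2.82). SLC7A11, the cystine importer, rose by 1.90 and NQO1, the quinone reductase often used as a readout of NRF2, by only 0.75. FTL, the ferritin light chain, rose (from 3386 to 8809.8 TPM) while the heavy chain FTH1 fell (from 14656 to 11134 TPM, -0.40), a call that was lost with no filter. PIR (-0.24), ME1 (-0.33) and the pentose phosphate enzyme TKT (-0.75) fell as well, while PGD (0.88) and TALDO1 (0.89) of the same pathway rose.

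GCLM and TXNRD1 were among the NRF2 targets with the core of the antioxidant response element, TGACNNNGC, in their promoter, at chr1:93909431-93909490 (minus strand, GCLM) and chr12:104215654-104215713 (plus strand, TXNRD1). They are shown because both rose at high levels, with the match in capitals, in GCLM as the reverse complement GCNNNGTCA.
GCLM: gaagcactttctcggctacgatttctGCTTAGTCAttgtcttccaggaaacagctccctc
TXNRD1: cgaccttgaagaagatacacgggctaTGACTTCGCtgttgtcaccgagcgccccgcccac

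The motif leaves some bases free and is common: 6 of the 20 NRF2 targets with a promoter in the table (30.0%) held it on either strand, against 13.6% of all promoters and 15.2% of those of tested genes. ME1 and PIR, which fell, were among the 6.

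The integrated stress response, in which phosphorylated eIF2α favours translation of ATF4, and the unfolded protein response of the endoplasmic reticulum (ER) formed a list of 28 genes. Of these 18 rose, 9 of them beyond 1, and 6 fell, 1 of them beyond -1. The shares were 64.3% and 21.4%, against 33.6% and 41.0% of all genes, and the median was 0.46. The transcription factor ATF3 was at 7.56, 8.35 and 9.07 TPM in shARF and 119.9, 116 and 118 TPM in Both, with a log2 fold change of 3.81 ± 0.075 (SE), adjusted p = 5.25e-10. CHAC1, which degrades glutathione, went from 28.1, 26.4 and 31.4 TPM in shARF to 319.6, 270.3 and 297 TPM in Both, and the phosphatase subunit PPP1R15A (GADD34) and the transcription factor DDIT3 (CHOP) rose by 2.22 and 2.08. Genes of amino acid supply rose too, ASNS by 1.83, TRIB3, a pseudokinase of the same programme, by 1.81, and MTHFD2 by 1.52. ATF4 itself rose by 0.44. The genes that fell were mostly ER chaperones and ER-associated degradation factors: CRELD2 (-1.04), HSP90B1 (-0.90), EDEM1 (-0.74), HERPUD1 (-0.74) and MANF (-0.69), and HSPA5 (BiP) was at 0.10, which did not pass. TTGCATCA, a C/EBP-ATF response element, was found in the promoters of CHAC1 and HERPUD1, 2 of 26 members (7.69%, against 0.923% of all promoters and 0.454% of those tested). CHAC1 rose and HERPUD1 fell. None of the 3 motifs searched contains another.

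Among chaperones outside the ER, 13 of 18 were lower, 2 beyond -1, and 2 higher (72.2% and 11.1%, against 41.0% and 33.6% of all genes). The median was -0.47. HSPA8, the constitutive HSP70, went from 1737 to 719 TPM (-1.27), and the mitochondrial chaperonin pair HSPD1 (-1.07) and HSPE1 (-0.94) fell with HSP90AA1 (-0.82) and HSP90AB1 (-0.83). DNAJB4 and HSPB8 were the exceptions, DNAJB4 at 12.2, 12.1 and 13.6 TPM in shARF and 74.3, 91.8 and 73.5 TPM in Both. HSPA1A and HSPA1B, the heat-inducible HSP70 genes, are near-identical copies and fell as well (-0.93 and -0.47).

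**Figure D1:**
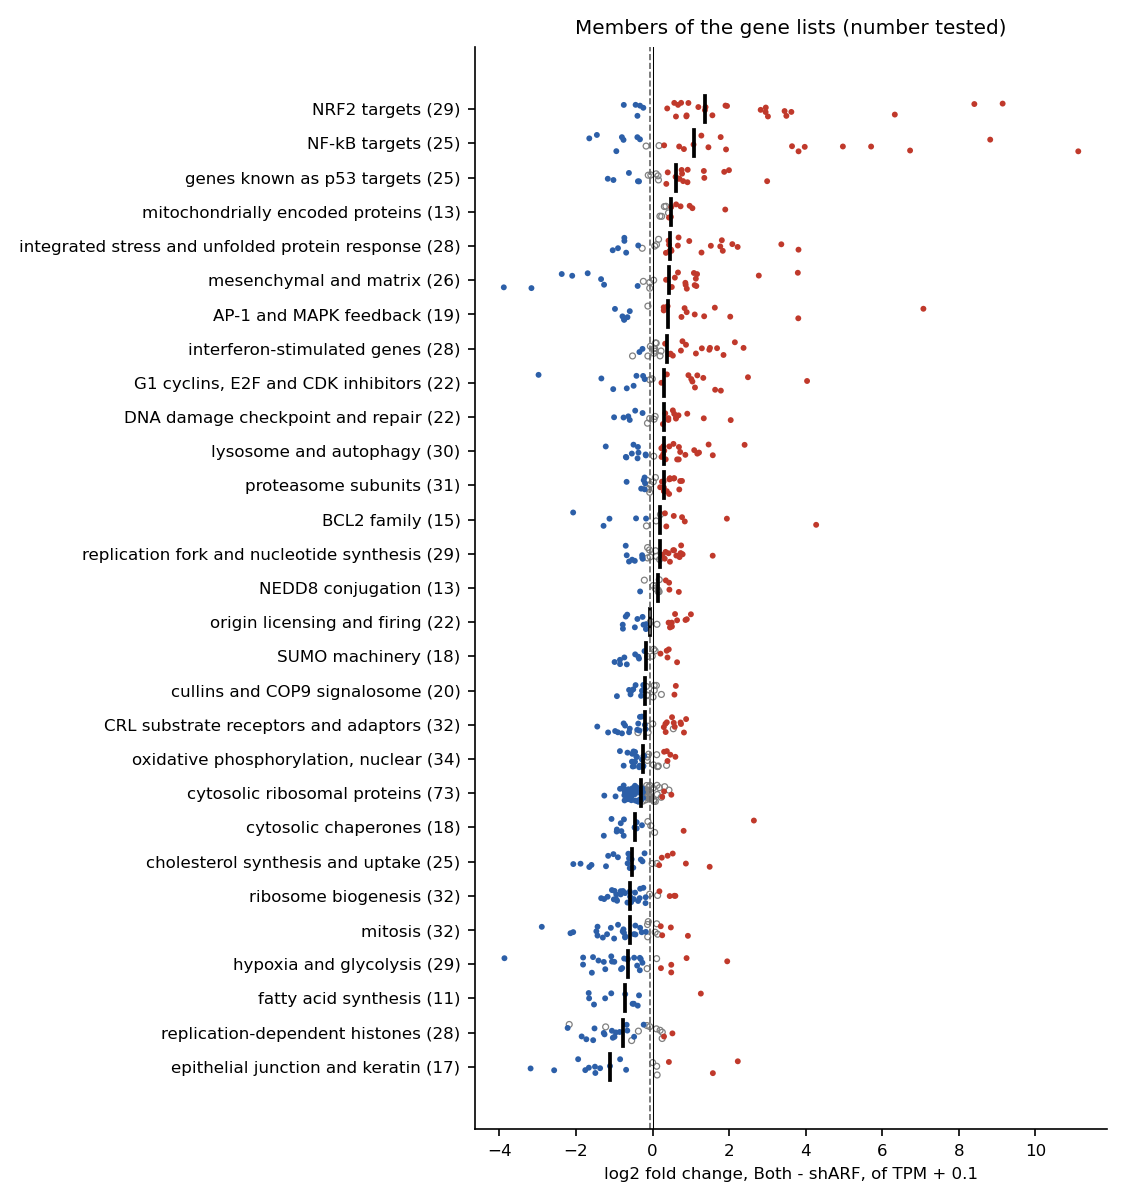
Log2 fold change (Both minus shARF, of TPM + 0.1) of each tested member of the 29 gene lists, red where higher and blue where lower at an adjusted p below 0.05, open where the call was missed, with a black bar at the median of each list and a dashed line at the median of all genes (-0.08). The lists run from the NRF2 targets (median 1.37) and NF-kB targets (1.07) at the top to the epithelial list (-1.11) at the bottom.

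In the pathway of the drug itself changes were small. Of 13 genes of NEDD8 conjugation, 4 rose and 1 fell (30.8% and 7.69%, against 33.6% and 41.0% of all genes). None went beyond 1, and the median was 0.15. Under median-of-ratios scaling 9 rose and 1 fell. NAE1 and UBA3, the subunits of the enzyme that MLN4924 inhibits, had log2 fold changes of 0.15 and 0.17, and NEDD8 itself 0.091, none past the test on TPM as deposited. UBE2M, the main E2 enzyme for cullins with RBX1, went from 343, 312 and 373 TPM in shARF to 479.8, 432 and 480.0 TPM in Both (0.44), while the other E2, UBE2F, fell (-0.33) and was the exception of the list. DCUN1D3, DCUN1D1 and DCUN1D5, co-E3 factors that help NEDD8 onto cullins, rose by 0.69, 0.43 and 0.35.

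Of 20 cullins and subunits of the COP9 signalosome, which removes NEDD8 from cullins, 2 rose and 10 fell. These were 10% and 50%, against 33.6% and 41.0% of all genes. The median was -0.19 and none went beyond 1. Under median-of-ratios scaling 4 rose and 7 fell, with a median of -0.095. CUL3 rose (0.57) with COPS8 (0.61). CUL4A (-0.58), CUL1 (-0.51) and CUL4B (-0.44) fell. CAND2, of the family that exchanges substrate receptors, fell (-0.93) from low levels. Among 32 substrate receptors and adaptors 11 rose and 16 fell (34.4% and 50%, against 33.6% and 41.0% of all genes), with a median of -0.19, and 2 fell beyond -1: SPOP, a CUL3 receptor often mutated in prostate cancer, and the F-box protein FBXO32. SPOP stood at 42.6, 41.8 and 42.6 TPM in shARF and 16.5, 15.7 and 14.4 TPM in Both (log2 fold change of -1.45 ± 0.069 (SE), adjusted p = 9.40e-08). The CUL4 adaptor DDB1 fell (-0.76) with its partners DCAF1 (-0.98) and DDB2 (-0.91), whereas DTL, the receptor that takes CDT1 and p21 to CUL4, rose (0.82). KEAP1, the receptor for NRF2, rose by 0.58, and SKP2, the receptor for p27, fell (-0.60).

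Of the CRL substrates named by the study, CDKN1A, encoding p21, rose most at the RNA level. It was at 11.8, 11.7 and 13.2 TPM in shARF and 219, 205 and 183 TPM in Both, with a log2 fold change of 4.04 ± 0.082 (SE), adjusted p = 6.05e-10. CDT1 rose from 43.6, 40.3 and 53.3 TPM in shARF to 78.96, 75.3 and 94.4 TPM in Both (0.86, adjusted p = 9.98e-05). CDKN1B, encoding p27, and WEE1 had log2 fold changes of -0.0088 and -0.074 with adjusted p of 0.894 and 0.403. CDKN1B was at 43.3, 45.5 and 45.6 TPM in shARF and 44.7, 45.3 and 43.5 TPM in Both, and WEE1 at 10.6, 10.01 and 10.4 TPM in shARF and 9.38, 9.67 and 10.4 TPM in Both, so the conditions overlapped for both, and the 95% interval of the difference was -0.14 to 0.12 for CDKN1B and -0.25 to 0.10 for WEE1. Among G1 cyclins, E2F factors and CDK inhibitors, 12 of 22 rose, 9 beyond 1, and 8 fell, 3 beyond -1. The shares were 54.5% and 36.4%, against 33.6% and 41.0% of all genes. Cyclin D1, CCND1, fell from 311, 306 and 333 TPM in shARF to 39.7, 39.7 and 40.6 TPM in Both (-2.98), while the E-type cyclins that act at the G1/S border rose, CCNE2 by 2.49 and CCNE1 by 1.78. E2F1 (1.04), E2F2 (1.32), E2F7 (1.11) and E2F8 (1.63) and their target CDC25A (1.01) rose as well. RBL1, encoding the pocket protein p107, fell (-1.34).

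Of 22 genes of origin licensing and firing 9 rose and 10 fell (40.9% and 45.5%, against 33.6% and 41.0% of all genes), with a median of -0.07, which became 0.03 under median-of-ratios scaling, so the sign of the median rests on the scaling. ORC6 (1.00), CDC6 (0.89) and CDT1, which load the helicase, rose, and the helicase subunits MCM5 (-0.78), MCM3 (-0.70), MCM6 (-0.66), MCM2 (-0.40) and MCM7 (-0.26) fell. GMNN, encoding the CDT1 inhibitor geminin, was at 0.11 and did not pass. Of 29 genes of the replication fork and nucleotide synthesis, 14 rose and 8 fell (48.3% and 27.6%, against the same shares), with a median of 0.18. RRM2, the regulated subunit of ribonucleotide reductase, was at 145, 147 and 147 TPM in shARF and 439, 458 and 407 TPM in Both (1.57) and was the only member beyond 1, and TYMS and CHAF1B rose by 0.70 and 0.79. Of 22 genes of DNA damage signalling and repair, 12 rose and 6 fell (54.5% and 27.3%, against 33.6% and 41.0%), with a median of 0.30. RAD51AP1 and CLSPN rose by 2.04 and 1.34, and the kinase genes ATM (-1.01) and ATR (-0.76) fell.

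Of 32 mitotic genes, 22 were lower, 10 beyond -1, and 4 higher (68.8% and 12.5%, against 41.0% and 33.6% of all genes). The median was -0.60. PLK1, the Polo-like kinase of mitotic entry, stood at 86.97, 80.4 and 82.8 TPM in shARF and 11.1, 11.4 and 10.8 TPM in Both (log2 fold change of -2.89 ± 0.061 (SE), adjusted p = 7.41e-10). CDC20, the activator of the anaphase-promoting complex, went from 209.6, 202 and 215 TPM in shARF to 49.1, 47.9 and 44.5 TPM in Both (-2.15), the kinesins KIF20A (-2.07) and KIF4A (-1.47) fell, and so did AURKA (-1.44), CCNB1 (-1.30) and BIRC5 (-1.19). CDK1 went the other way (0.92), with KIF2C, NUSAP1 and KIF23, and the proliferation marker MKI67 fell (-0.72). Replication-dependent histone genes, whose mRNA is made in S phase and has no poly(A) tail, passed the filter for 28 of 59 listed. Of these 16 fell and 2 rose (57.1% and 7.14%, against 41.0% and 33.6% of all genes), with a median of -0.77. Their reads can be shared among near-identical copies and depend on how RNA was selected, so single values are uncertain: HIST1H2BO and HIST1H2AI each lost the call under an alternative. HIST1H2BO also averaged 0.390 TPM in Both and passed the filter only through shARF, so it had to differ.

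Among 25 genes known as p53 targets, 15 rose and 5 fell (60% and 20%, against 33.6% and 41.0% of all genes). Beyond 1 were 5 and 2 of them, and the median was 0.60. SESN2, also a target of ATF4 and NRF2, was at 17.2, 17.1 and 17.9 TPM in shARF and 148, 138 and 133 TPM in Both (2.99). PLK3, PLK2, FAS and GADD45A rose by 1.996, 1.87, 1.35 and 1.34, and MDM2 by 0.80. TP53INP1 (-1.17) and TP53I3 (-1.02) fell, and BBC3 (PUMA), at 0.092, did not pass. In the BCL2 family of 15 tested genes, 7 rose and 5 fell (46.7% and 33.3%, against 33.6% and 41.0% of all genes). The pro-survival BCL2A1, an NF-kB target, went from 3.90, 6.56 and 4.08 TPM in shARF to 82.9, 98.9 and 98.04 TPM in Both (4.27), and the BH3-only gene PMAIP1 (NOXA), a target of ATF4 as well as p53, from 163, 168 and 166 TPM in shARF to 639.9, 684 and 593 TPM in Both (1.94). BMF (-2.08), BOK (-1.28) and BID (-1.13), which promote cell death, fell. BMF averaged 0.859 TPM in Both and passed the filter only through shARF, so it had to differ.

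Of 19 genes of the AP-1 and MAPK feedback list 12 rose and 6 fell, with a median of 0.39. The shares were 63.2% and 31.6%, against 33.6% and 41.0% of all genes. EGR1 was at 0, 0.099 and 0.0506 TPM in shARF and 23, 18.6 and 16.9 TPM in Both (7.08, and 4.28 to 8.90 over the alternatives, since the fold rests on the pseudocount) and DUSP1, which switches off MAP kinases, at 14.1, 13.9 and 17.7 TPM in shARF and 218, 211 and 209.7 TPM in Both (3.81). IER3 and FOSB rose by 1.63 and 2.03. EGR1 and FOSB averaged 0.0499 and 0.877 TPM in shARF and passed the filter only through Both, so they had to differ. The Sprouty genes SPRY4 (-0.98) and SPRY2 (-0.74), inhibitors of the pathway that activates these kinases, fell. Interferon-stimulated genes rose in 15 of 28 and fell in 2 (53.6% and 7.14%, against 33.6% and 41.0% of all genes), with a median of 0.37. SAMD9 (from 32.1 to 168 TPM), IRF7 (from 21.2 to 94.4 TPM), IFI27 (from 89.4 to 322 TPM) and IFI35 (from 69.3 to 222 TPM) led them. ISG15 (from 605 to 629.7 TPM), IFIT1 (from 78.6 to 84.98 TPM), OAS1 (from 109 to 125 TPM) and IFIT3 (from 164 to 158 TPM), among the best known of the group, did not pass.

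**Figure D2:**
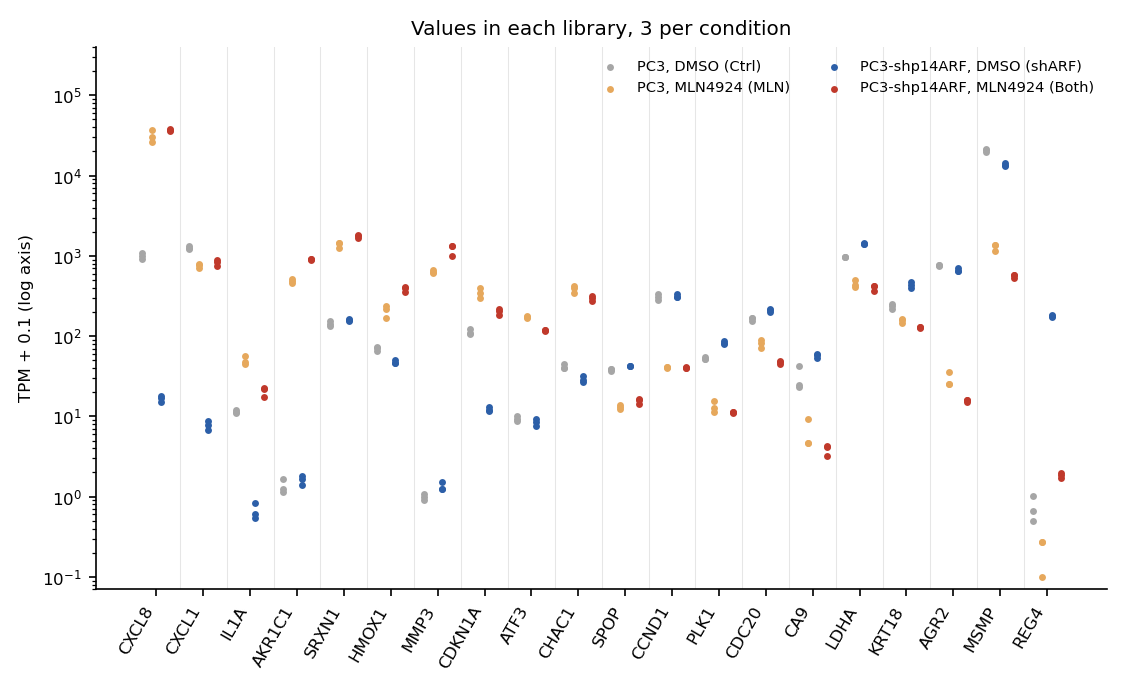
TPM + 0.1 on a log axis in each of the 12 libraries for 20 genes, with 3 points for each of Ctrl (grey), MLN (orange), shARF (blue) and Both (red). For CXCL8 the red points lie at 35971 to 37772 TPM beside orange points at 26400 to 37120 TPM, while the blue points (15.1 to 17.97 TPM) lie far below the grey ones (926 to 1085 TPM).

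Of 29 genes of hypoxia and glycolysis, 22 fell, 11 of them beyond -1, and 5 rose, with a median of -0.65. The shares were 75.9% and 17.2%, against 41.0% and 33.6% of all genes. Genes for most steps of glycolysis fell: GPI (-1.59), PFKP (-1.41), PGK1 (-1.27), ENO1 (-1.08), PKM (-1.82) and LDHA (-1.81). LDHA was at 1389, 1465 and 1413 TPM in shARF and 424, 425 and 366 TPM in Both, and PKM at 1167, 1147 and 1188 TPM in shARF and 350.3, 317 and 327 TPM in Both. CA9, the carbonic anhydrase that is a classical target of hypoxia-inducible factor HIF-1, fell from 58.1, 52.6 and 59.6 TPM in shARF to 3.14, 4.18 and 4.11 TPM in Both (-3.87), whereas ADM (1.95) and VEGFA (0.89), also HIF targets, rose. HK1 and HK2, at the first step, rose by 0.49 and 0.22. HIF-1α is itself destroyed through a CRL, that of VHL and CUL2, and VHL rose by 0.29.

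Nuclear genes of oxidative phosphorylation fell in 20 of 34 and rose in 5 (58.8% and 14.7%, against 41.0% and 33.6% of all genes). The median was -0.25, with none beyond 1. ATP5A1 (-0.85) and SDHA (-0.76) fell most. The 13 protein genes of the mitochondrial genome went the other way, with 8 higher (61.5%, against 33.6%), none lower and a median of 0.48. MT-CO1 was at 13977, 14303 and 11245 TPM in shARF and 20146, 19531 and 26145 TPM in Both and MT-ND4 at 8482, 8053 and 6235 TPM in shARF and 13006, 14415 and 17017 TPM in Both. MT-ND6, the only one on the light strand, was at 35.1, 43.2 and 33.3 TPM in shARF and 219, 112 and 107 TPM in Both, where replicate 2 of Both was well above the others. The calls for MT-CO2 and MT-CO3 were lost under some alternatives, and the share of mitochondrial transcripts also differed among replicates.

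Of 11 genes of fatty acid synthesis 10 were lower (90.9%, against 41.0% of all genes), 5 beyond -1, with a median of -0.72. ELOVL6 (-1.67), ACACA (-1.66), SCD (-1.53), FASN (-1.24) and their regulator SREBF1 (-1.08) were among them. SCD, the desaturase that makes oleate, was at 760.3, 742 and 774 TPM in shARF and 266, 283 and 240.0 TPM in Both. The exception was FADS1, the Δ5 desaturase of polyunsaturated fatty acids, at 129, 123 and 128 TPM in shARF and 315, 325 and 275 TPM in Both (1.26). Of 25 genes of cholesterol synthesis and uptake 17 fell and 6 rose (68% and 24%, against 41.0% and 33.6%), with a median of -0.55. PMVK (-2.07), LSS (-1.65), TM7SF2 (-1.60) and SREBF2 (-1.02) were among those that fell. STARD4, a cholesterol carrier, rose (1.49).

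Of 73 cytosolic ribosomal protein genes 40 fell and 3 rose (54.8% and 4.11%, against 41.0% and 33.6% of all genes), with a median of -0.30. Only RPL3 went beyond -1, at 1333, 1146 and 1306 TPM in shARF and 523, 531 and 520.3 TPM in Both. The summed level of the list was 82298 to 83918 TPM in shARF and 64464 to 71068 TPM in Both. Of 32 genes of ribosome biogenesis 26 fell, 5 beyond -1, and 4 rose (81.2% and 12.5%, against 41.0% and 33.6%), with a median of -0.59. The nucleolar proteins NCL (-1.34) and NPM1 (-1.18) fell, and so did POLR1A (-1.27), the largest subunit of RNA polymerase I. NPM1 is the protein that holds p14ARF in the nucleolus, and stood at 1824, 1881 and 1695 TPM in shARF and 800.0, 869 and 726 TPM in Both. Proteasome subunits rose in 18 of 31 and fell in 6 (58.1% and 19.4%, against 33.6% and 41.0%), none beyond 1, with a median of 0.29. Under median-of-ratios scaling 19 rose and 2 fell. PSMC6 (0.77) and PSMA6 (0.72) led the rises. Of 30 genes of lysosome and autophagy, 19 rose and 10 fell (63.3% and 33.3%, against 33.6% and 41.0%), with a median of 0.29. GLA, the lysosomal α-galactosidase, went from 67.3, 69.8 and 64.2 TPM in shARF to 358, 365 and 343 TPM in Both (2.40), the autophagosome genes GABARAPL1 and MAP1LC3B rose by 1.57 and 1.46, and cathepsin Z (CTSZ) fell (-1.22).

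SUMO is another relative of ubiquitin, which the study also followed. Of 18 genes of its machinery 5 rose and 9 fell (27.8% and 50%, against 33.6% and 41.0% of all genes). The median was -0.17 and none went beyond 1. SUMO2 was at 468, 464 and 467 TPM in shARF and 457, 488 and 446 TPM in Both, with a change of -0.010 (adjusted p = 0.884, 95% interval -0.14 to 0.12). SUMO3 (-0.85), the E1 subunits SAE1 (-0.99) and UBA2 (-0.37) and the E3 ligase RANBP2 (-0.85) fell, and the protease SENP5 rose (0.64).

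Epithelial genes had the lowest median of the 29 lists, -1.11. Of 17 tested, 11 fell, 9 beyond -1, and 3 rose (64.7% and 17.6%, against 41.0% and 33.6% of all genes). KRT18, a keratin of simple epithelia, was at 433, 397 and 478 TPM in shARF and 125, 131 and 128 TPM in Both (-1.76), and EPCAM at 76.2, 79.7 and 73.5 TPM in shARF and 19.7, 21.5 and 18.3 TPM in Both (-1.95). CLDN3 (-3.19), the plakophilin PKP3 (-2.57), plakoglobin JUP (-1.67) and E-cadherin CDH1 (-1.51) fell. CLDN1 rose, from 44.5, 49.8 and 43.9 TPM in shARF to 215, 229 and 204 TPM in Both (2.23), with the splicing factor ESRP1 and DSG2. Mesenchymal and matrix genes did not mirror this: 14 of 26 rose and 8 fell, with 7 beyond 1 in either direction. Their shares were 53.8% and 30.8%, against 33.6% and 41.0% of all genes. LAMB3 (3.79), FN1 (2.77) and ITGA5 (1.13) rose, and SPARC (-3.89), ITGB4 (-3.17), COL6A1 (-2.37), TIMP2 (-2.10) and VIM (-1.27) fell. SPARC was at 71.7, 75.9 and 74.5 TPM in shARF and 5.42, 5.50 and 3.96 TPM in Both, and LAMB3, a chain of laminin-332, at 18.97, 17.8 and 21.3 TPM in shARF and 280.1, 265 and 263 TPM in Both.

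Other genes with large rises and a mean of at least 10 TPM belonged to no list. HPD, an enzyme of tyrosine breakdown, was at 0, 0.0699 and 0.0714 TPM in shARF and 368, 356 and 342 TPM in Both (log2 fold change of 11.28 ± 0.19 (SE), adjusted p = 2.19e-10). TNFSF18, the ligand of the T cell receptor GITR, was at 0.0784, 0.155 and 0.079 TPM in shARF and 295, 342 and 263 TPM in Both (log2 fold change of 10.53 ± 0.15 (SE), adjusted p = 9.81e-11). HPD and TNFSF18 were near 0 with DMSO and passed the filter only through Both, and over the alternatives their log2 fold changes ran from 8.41 to 13.1 and from 8.08 to 11.4, so the sizes rest on the pseudocount. MMP3, stromelysin-1, was at 1.15, 1.44 and 1.16 TPM in shARF and 1323, 1313 and 995 TPM in Both (log2 fold change of 9.80 ± 0.12 (SE), adjusted p = 4.56e-11). KRT34, a hair keratin, was at 0.809, 0.621 and 1.63 TPM in shARF and 506, 479 and 484 TPM in Both. CYP4F11 and CYP4F3, hydroxylases of fatty acids and leukotrienes, reached 127 to 152 and 54.2 to 56.2 TPM from below 0.1 TPM, and the cancer-testis gene SPANXA1 397 to 412 TPM from at most 0.225 TPM. SPANXB1, the long noncoding RNA LIVAR and AC105177.1 were listed at 0 in every shARF library and at 71.3 to 81.7, 64.3 to 86.6 and 54.5 to 63.8 TPM in Both, and no fold is given for them. SPANX genes are near-identical copies, so reads may have been divided among them. AL596223.1 and AP003064.2, listed without a gene name, reached 403 to 432 and 257 to 274 TPM. The CYP4F and SPANX genes, LIVAR, AC105177.1, AL596223.1 and AP003064.2 also passed the filter only through Both, so they had to differ.

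Among the 15 largest falls, REG4, a secreted lectin of the intestine, was at 174, 176 and 184 TPM in shARF and 1.63, 1.87 and 1.76 TPM in Both (log2 fold change of -6.59 ± 0.072 (SE), adjusted p = 2.73e-11). AGR2, a disulfide isomerase of mucus-secreting cells, was at 640.2, 697 and 647 TPM in shARF and 15, 15.8 and 15.9 TPM in Both (log2 fold change of -5.40 ± 0.059 (SE), adjusted p = 2.73e-11). FCGBP and MUC5B, components of mucus, fell too, FCGBP from 28.6, 25.8 and 30.97 TPM in shARF to 0.52, 0.445 and 0.394 TPM in Both and MUC5B from 25.9, 20.9 and 23.05 TPM in shARF to 0.652, 0.694 and 0.558 TPM in Both. LGR5, a stem cell receptor of the Wnt pathway, fell from 34.98, 34.2 and 36.5 TPM in shARF to 1.14, 1.39 and 1.17 TPM in Both (-4.73), and LFNG, a modifier of Notch, from 54.3, 49.4 and 60.1 TPM in shARF to 0.613, 0.622 and 1.07 TPM in Both (-6.01). The steroid enzyme HSD17B2 (-5.32), the peptide hormone APLN (-5.19), the ferritin receptor SCARA5 (-4.93) and LRG1 (-4.89) fell by similar amounts. The somatostatin receptor SSTR5 fell from 83.7, 82.9 and 96.3 TPM in shARF to 0.989, 1.004 and 0.751 TPM in Both, together with its antisense partner SSTR5-AS1 (-6.36), and since strandedness is not stated, their reads cannot be told apart. PHACTR3 (-5.08), FAM20A (-4.65) and the noncoding GACAT2 (-5.18) complete the list. FCGBP, MUC5B, LFNG, HSD17B2, APLN, LRG1, SSTR5 and FAM20A averaged below 1 TPM in Both and passed the filter only through shARF. They had to differ, so their calls add nothing. MSMP, a secreted protein that was named here after its values were seen, was among the most abundant genes with DMSO, at 13276, 13670.0 and 14409 TPM in shARF and 576, 522 and 573 TPM in Both (-4.63).

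How far this response was that of the depleted line was asked by the interaction, the response in PC3-shp14ARF cells minus that in PC3 cells, over the 12 libraries. It was more positive in 2118 genes (14.7%) and more negative in 3343 (23.2%) at an adjusted p below 0.05. Counts of interactions in a gene list are to be read against these shares. Of those called, 38.8% were positive, and with median-of-ratios scaling 53.8% were, so that the balance of the signs rests on the scaling. Such a scaling moved the median log2 fold change of all genes by 0.0954, and each difference is better read against the median interaction of -0.08.

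Of the 29 lists, the NF-kB targets had the largest median interaction, 1.89, with 20 of 25 interactions positive and 2 negative. Their median response was -0.36 in PC3 cells against 1.07 in the depleted line. The filter used the depleted line alone, and CXCL3, CCL20, IL6, IL1A and CSF2 passed it only through Both. Listed genes that it left out were not tested in PC3 cells either. The count and the median are thus in part set by the filter and are a description only. In PC3 cells CXCL1 was at 1323, 1208 and 1266 TPM in Ctrl and 716, 767 and 792 TPM in MLN, so it was already high with DMSO and came to a level with the drug near that of Both (845, 876 and 745 TPM). The interaction was 7.47 ± 0.13 for CXCL1, 7.06 ± 0.24 for CXCL3, 6.16 ± 0.16 (adjusted p = 2.38e-11) for CXCL8 and 5.91 ± 0.13 for CXCL2. These and the interactions below passed at an adjusted p below 0.05 unless said otherwise. CXCL8 was at 926, 1085 and 983 TPM in Ctrl and 37120.3, 30320.3 and 26399.7 TPM in MLN, so its larger fold in PC3-shp14ARF cells went with a vehicle level of 15.1 to 17.97 TPM. PI3, encoding the elastase inhibitor elafin, fell in PC3 cells, from 22857, 20330.2 and 23717 TPM to 3048, 3776 and 3299 TPM, and rose in the depleted line from 249.3, 297 and 273 TPM in shARF to 2022, 1864 and 1906 TPM in Both (interaction 5.55 ± 0.14). ZC3H12A, an RNase that degrades cytokine mRNAs, did the same (interaction 5.15 ± 0.20), at 229, 174 and 188 TPM in Ctrl, 36.1, 39.9 and 43.003 in MLN, 5.19, 3.58 and 5.44 in shARF and 33.7, 33.1 and 35.6 in Both. LCN2, an antimicrobial siderophore binder, fell in both lines, with log2 fold changes of -0.33 here and -5.14 in PC3 cells (interaction 4.81 ± 0.14). The exceptions were IRF1 (-1.74 ± 0.15) and NFKBIE (-0.93 ± 0.15). In the NRF2 list 10 interactions were positive, 5 negative and 14 not called, with medians of 1.37 and 1.33 in the depleted and parental lines. HMOX1 had the largest, 1.46 ± 0.15.

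Cell cycle and interferon genes had more negative interactions. None of the 29 genes of the replication fork had a positive interaction and 24 had a negative one, with a median response of 0.18 against 0.74 in PC3 cells. The summed level of that list was 1431 to 1553 TPM in Ctrl, 3048 to 3491 TPM in MLN, 2641 to 2706 TPM in shARF and 3389 to 3475 TPM in Both, so the lines differed already with DMSO. For licensing genes the counts were 0 and 16 (medians -0.07 and 0.78), and 2 and 16 with median-of-ratios scaling, and the sum was 702 to 757 TPM in Ctrl, 1117 to 1259 TPM in MLN, 1343 to 1432 TPM in shARF and 1306 to 1329 TPM in Both. MCM5 rose by 0.80 in PC3 cells and fell here (-0.78, interaction -1.58 ± 0.14), and CDT1 rose by 2.41 there (interaction -1.55 ± 0.16), from 17.3 to 18.97 TPM to 84.4 to 108 TPM, against 40.3 to 53.3 TPM in shARF and 75.3 to 94.4 TPM in Both. Mitotic genes had 0 positive and 23 negative interactions (medians -0.60 and -0.19), and 0 and 16 with median-of-ratios scaling. For interferon-stimulated genes 26 of 28 were negative and none positive, with medians of 0.37 and 1.503, and ISG15 rose by 1.65 in PC3 cells against 0.058 here. The stress response list was closer, with 10 positive and 2 negative, ASNS (1.49 ± 0.10) and DNAJB9 (1.65 ± 0.14) among the positive.

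**Figure D3:**
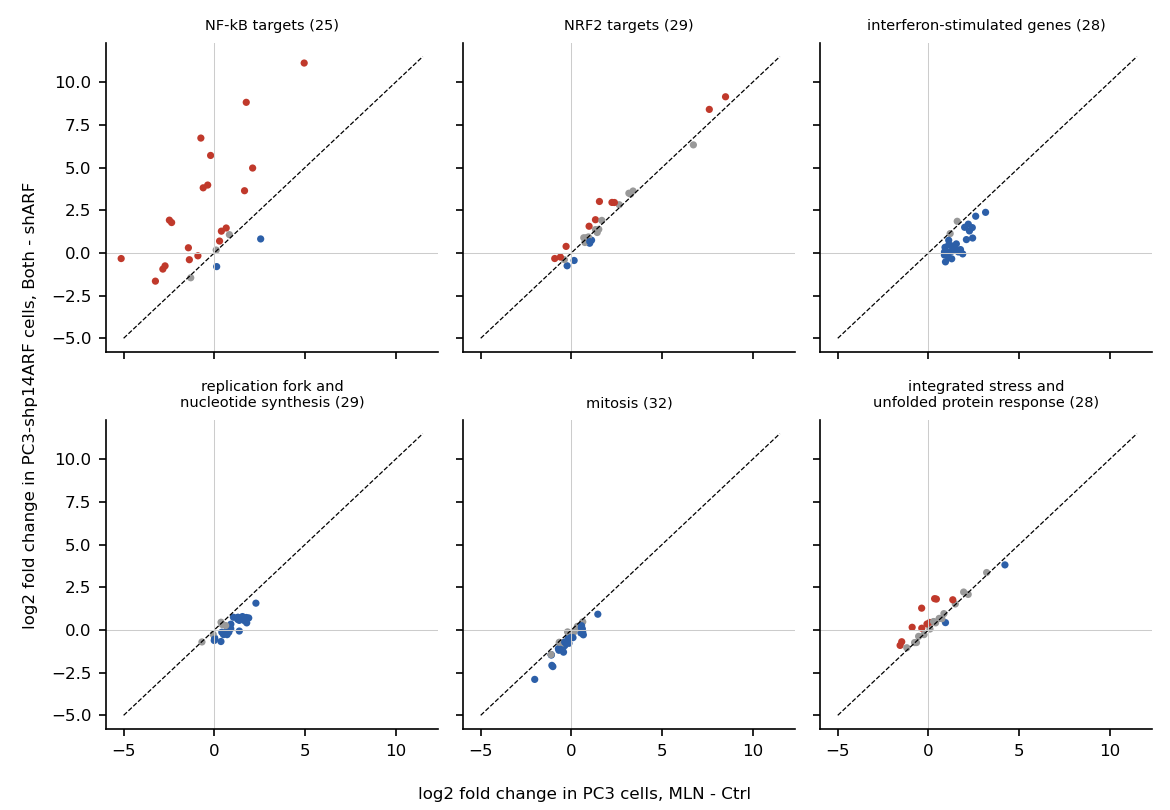
Log2 fold change in PC3-shp14ARF cells (vertical) against that in PC3 cells (horizontal), of TPM + 0.1, for the members of 6 gene lists, with points in red or blue where the interaction was positive or negative at an adjusted p below 0.05, grey otherwise, and a dashed line of equal response. Most NF-kB targets lie above the line, 20 of 25 in red, while 26 of 28 interferon-stimulated genes and 24 of 29 replication fork genes are blue and lie below it. CXCL3 and some other NF-kB targets passed the filter only through Both, so that panel is in part set by the filter.

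CRL substrate genes of the study differed too. CDKN1A rose more in the depleted line (interaction 2.44 ± 0.14), where its vehicle level of 11.7 to 13.2 TPM was below the 106 to 124 TPM of Ctrl, and reached 183 to 219 TPM against 299 to 394 TPM in MLN. CDKN1B and WEE1 rose in PC3 cells by 0.66 and 1.04, with interactions of -0.67 ± 0.080 and -1.11 ± 0.12. CDKN1B was at 31.4 to 33.6 TPM in Ctrl and 49.7 to 53.3 TPM in MLN against 43.3 to 45.6 TPM in shARF, and WEE1 at 4.57 to 5.52 TPM and 10.2 to 10.8 TPM against 10.01 to 10.6 TPM, so each was higher with DMSO in the depleted line. NFKBIA fell in PC3 cells (-2.71), with 357 to 395 TPM in Ctrl and 50.7 to 60.9 TPM in MLN, and its interaction was 1.95 ± 0.12. SUMO2 had an interaction of -0.15 ± 0.078 (adjusted p = 0.149), which did not pass. CCND1, PKM, SPOP and VIM had interactions of -0.058 ± 0.091, -0.056 ± 0.12, 0.092 ± 0.094 and -0.013 ± 0.10, none past the test.

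The most negative interactions were of other kinds of genes. REG4 was at 0.403 to 0.913 TPM in Ctrl, 0 to 0.173 TPM in MLN and 1.63 to 1.87 TPM in Both, far below the 174 to 184 TPM of shARF (interaction -4.76 ± 0.47). With REG4 near 0 in PC3 cells, this interaction ran from -5.49 to -3.55 over the alternatives (limma, adjusted p at most 0.031), so its size is uncertain. ENTPD2, an ectonucleotidase, was at 3.07 to 4.21 TPM in Ctrl and 4.04 to 4.70 TPM in MLN, and fell in the depleted line, with 36.8 to 41.5 TPM in shARF and 1.10 to 1.89 TPM in Both (interaction -4.85 ± 0.24). MMP13, collagenase-3, rose in PC3 cells, with 7.11 to 7.60 TPM in Ctrl and 58.5 to 71.5 TPM in MLN, and did not pass the test in the depleted line, at 86.3, 88.8 and 85.6 TPM in shARF and 68.9, 87.6 and 65.7 TPM in Both (-0.24, adjusted p = 0.0514, interaction -3.38 ± 0.14). Its fall was called under 4 of 14 alternatives, with an adjusted p from 0.00058 without Both replicate 3 to 0.18 with median-of-ratios scaling. MUC13, a transmembrane mucin, rose in both lines, by 1.75 here and 4.59 in PC3 cells (interaction -2.84 ± 0.17). FAM167B fell (-2.52, interaction -2.73 ± 0.17). AC073896.1 was at 13.01, 15.6 and 11.3 TPM in shARF and 32.8, 5.91 and 7.07 TPM in Both, where replicate 2 of Both stood apart, so its interaction of -3.17 ± 0.93 is uncertain.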

How the data were processed

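Total RNA of PC3 and PC3-shp14ARF cells given DMSO or 1 µM MLN4924 for 3 days was sequenced as 12 libraries in 4 conditions (Ctrl, MLN, shARF, Both), 3 per condition. Per the labels and the study's methods, the authors trimmed the reads and mapped them to hg38 in CLC Genomics Workbench with Ensembl gene annotation, and tested read counts with DESeq2. The deposited table used here holds TPM (length-scaled transcript shares with the same total in each library) for each gene and library. TPM keeps no read depth, so depth and counting error are unknown, and sampling noise cannot be separated from other spread. Each column was given its condition from its name, and no column was left unmapped. How reads shared between gene copies were divided, and whether strand was used, is not given in the sources used here.

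Since TPM are not counts, log2(TPM + 0.1) was fitted, for the 14384 genes that averaged 1 TPM or more in PC3-shp14ARF cells, with limma 3.58.1 (R 4.3.3, lmFit and eBayes with trend), and p-values were adjusted over all of these genes (Benjamini-Hochberg), with a threshold of 0.05. The interaction was fitted on all 12 libraries for the same genes, and the response of PC3 cells on its own 6. Summaries were made with Python 3.11.15, pandas 2.3.3 and numpy 2.4.6. Tested on simulated data with 200 changed genes among 14384, the comparison of Both with shARF recovered 84% of log2 changes of 1 and 92% of changes of 2 with 8 false calls, and the interaction 84% and 88% with 8 false calls. The simulated noise was independent between libraries, and few genes were changed, whereas 74.7% of genes were called in the data. The simulation thus checks the code and does not give the error rate of these comparisons.

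The members and the 29 gene lists (802 entries, 801 matched, 66 through an older symbol) were chosen with earlier results of these data known. The text names the 15 largest rises and 15 largest falls with a mean of at least 10 TPM, the 4 members of each list with the largest change, 6 interactions per sign, the 5 most abundant genes and 6 genes of interest to the study, together with further list members that were chosen after their values were seen. Promoters are RefSeq sequences of GRCh38.p14, and gene positions come from GENCODE on GRCh38. Alternatives were a pseudocount of 1 or 0.01, a mean of at least 0.1 or 10 TPM or no filter, median-of-ratios scaling, eBayes without trend, all 12 libraries in 1 fit, and leaving out each replicate. A cutoff of 1 on the log2 scale was added after the data were seen. For lists, counts and medians are given beside those of all genes, and no set test was made. Some genes of the lists and of the study are not reported here.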

Additional observations from a re-analysis of the deposited data

Results flagged for a closer look

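The response to MLN4924 differed between PC3-shp14ARF and PC3 cells by the interaction test in 2118 genes that were more positive and 3343 that were more negative in the depleted line. Among the genes named by rule, the chemokine genes CXCL1 (interaction 7.47), CXCL3 (7.06), CXCL8 (6.16) and CXCL2 (5.91) had the most positive values, followed by PI3 (5.55) and ZC3H12A (5.15). For these 4 chemokine genes the levels in the drug-treated lines were close to each other and those with DMSO were far apart. CXCL3 passed the filter only through Both, so its value is in part set by the filter.

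The most negative interactions were those of ENTPD2 (-4.85), REG4 (-4.76), MMP13 (-3.38), AC073896.1 (-3.17), MUC13 (-2.84) and FAM167B (-2.73). REG4 and ENTPD2 were nearly silent or low in PC3 cells, and AC073896.1 rested on uneven replicates.

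Of the genes named by the study, CDKN1A (2.44) and NFKBIA (1.95) responded more positively in the depleted line, and CDT1 (-1.55), WEE1 (-1.11) and CDKN1B (-0.67) more negatively.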

How the results depend on the processing

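Of the 153 genes named by rule and called, 147 kept their direction and call under every alternative that tested them, and CDKN2A, HIST1H2BO, HIST1H2AI, MT-CO3, FTH1 and MT-CO2 lost the call under some. The number of genes higher was 3154 with a mean of at least 10 TPM, where 9204 genes were tested. Beyond a log2 fold change of 2, a pseudocount of 1 gave 434 genes higher and 278 lower, a mean of at least 0.1 TPM 1137 and 741, a mean of at least 10 TPM 266 and 204, and no filter 1119 higher. Leaving out each replicate gave 4521 to 4880 genes higher and 5503 to 5961 lower, 675 to 691 and 476 to 506 beyond 2, and 1823 to 2311 positive and 2794 to 3660 negative interactions.

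Values near 0 changed sign. With median-of-ratios scaling the median of the origin licensing list was 0.028, and CDKN1B was at 0.087, WEE1 at 0.021 and SUMO2 at 0.086, none past the test. Over the fits that left out 1 replicate, CDKN1B ran from -0.033 to 0.0080 (0.0025 without shARF replicate 3, 0.0045 without shARF replicate 5), SUMO2 from -0.047 to 0.018 (0.00015 without Both replicate 2), and AC073896.1 from -1.02 to 0.21 (0.082 without Both replicate 4), with the sign changing in each. Of 342 interaction values of the named genes under the alternatives, 341 kept their direction and call and 1 lost the call. The scaling was not chosen by any measure of total RNA, and TPM carries no depth. No paired analysis was possible because shARF and Both share only 1 replicate number, and the labels do not say that a number marks a shared culture or day.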

Other observations

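Some gene families outside the lists were looked at after their values were seen. Of the 10 matrix metalloproteinase genes 7 passed the filter, 5 rose and 1 fell, with a median of 0.99. The shares were 71.4% and 14.3%, against 33.6% and 41.0% of all genes. MMP10, stromelysin-2, was at 34.7, 37.7 and 35.3 TPM in shARF and 368, 364 and 297 TPM in Both (3.25) and the interstitial collagenase MMP1 at 358, 370.3 and 342 TPM in shARF and 825, 841 and 734 TPM in Both (1.16), so stromelysins rose more than MMP1, and the membrane-anchored MMP15 fell by 2.66 on the log2 scale. All 5 SPANX genes, which are normally expressed in spermatids, were at or near 0 in shARF and passed the filter only through Both. They had to rise, so their count is a description only. No size is given, since it rests on the pseudocount and the genes are near-identical copies. The 3 tested metallothioneins, small proteins that bind zinc and copper, all fell, as 41.0% of all genes did, with a median of -1.21. MT2A was at 749, 769 and 794 TPM in shARF and 383, 311 and 349 TPM in Both (-1.15).

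Of 12 genes of MHC class I and peptide loading 6 rose and 5 fell (50% and 41.7%, against 33.6% and 41.0% of all genes), with a median of 0.01 in PC3-shp14ARF cells and 0.81 in PC3 cells, and 8 interactions were negative and none positive. TAP1, a subunit of the peptide transporter, rose by 0.80, whereas B2M, the light chain of MHC class I, was at 689.7, 831 and 665 TPM in shARF and 485, 507 and 513 TPM in Both (-0.53). HKDC1, a hexokinase-like gene, was at 1.26, 0.73 and 1.49 TPM in shARF and 353, 358 and 344 TPM in Both (8.18). The synaptic vesicle gene SYP was at 3.65, 3.87 and 3.62 TPM in shARF and 0.833, 0.99 and 0.868 TPM in Both (-1.94). SYP was below 1 TPM in every Both library and passed the filter only through shARF, so it had to differ. The neuroendocrine marker CHGA, which did not pass the filter and was not tested, was listed at 0 in all libraries given DMSO and stood at 0.194 to 0.333 TPM in MLN and 0.772 to 1.08 TPM in Both.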
